A study of Mus musculus with 4 samples.

Results

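The cells described here are capillary endothelial cells of the type known from fat, found in a single-cell library of aged mouse aortic adventitia, the outer coat of the vessel. They were selected on their own RNA counts. A cell was kept when it had at least 2 unique molecular identifiers (UMIs, counted RNA molecules) of the endothelial genes Pecam1 and Cdh5 together, at least 3 of Gpihbp1, Cd36 and Car4 together and at least 1 of Gpihbp1. It also had to have 0 UMIs of the leukocyte gene Ptprc and fewer than 15 of the fibroblast genes Dcn, Col1a2 and Col3a1. The rule kept 290 of the 8497 adventitial cells that passed quality filters, a share of 3.41% (95% exact Clopper-Pearson interval 3.04 to 3.82), among 14831 such cells in the whole series. These 290 cells were 83.8% (79.5 to 87.5) of the 346 adventitial cells that passed the endothelial part of the rule. The other 56 are called other adventitial endothelium below.

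Capillaries in fat and muscle carry GPIHBP1, a protein that holds lipoprotein lipase at the vessel surface, where the lipase releases fatty acids from circulating triglyceride. CD36 takes these fatty acids up, fatty acid binding proteins carry them through the cell, and the factors TCF15, MEOX2 and PPARG are known to drive this programme. The aorta is surrounded by perivascular fat and by the small vessels of its own wall.

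The adventitial library came from aged C57BL/6 mice whose number the labels do not give. The libraries set against it came from the scraped intima, the inner coat, of C57BL/6 mice: aged descending intima 1 and 2, each pooled from 6 aged mice, and young arch intima, pooled from 8 young mice. The labels give no sex and no age in months, and they repeat for the adventitia a protocol that strips the adventitia off, so how the outer coat was dissociated is not known. That protocol adds actinomycin D, which blocks transcription, to the cell suspension. Because there was 1 adventitial library, its tissue layer, vessel bed, isolation and sequencing cannot be told apart when it is compared with the intima.

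The capillary cells held 1201344 UMIs, with a median of 3551 UMIs and 1626.5 genes per cell. The 56 other adventitial endothelial cells held 227043 UMIs at a median of 3364.5. The endothelial part of the rule kept 1421, 1189 and 1048 cells in aged descending intima 1 and 2 and young arch intima, at medians of 5292, 4890 and 7038 UMIs. Levels are given as CPM, a gene's UMIs summed over a group and scaled to the same total (1000000 UMIs), and are compared only within a gene. Intervals (95%, exact) reflect counting error alone, since 1 library gives no spread between mice. The capillary barcodes shared 1, 2 and 2 barcode sequences with the 3 intimal libraries, and the whole adventitial library 27, 29 and 31.

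The 2 markers of this cell type that the rule did not use were both high. They come from the same marker list as the genes of the rule, chosen with earlier results of these data known. Their levels are thus a description and not an independent check of the label. Tcf15, a transcription factor of fat and heart capillaries (GRCm38 chromosome 2, 152143561 to 152149097), stood at 497 CPM in capillary cells, 39.6 CPM in other adventitial endothelium and 1.07, 0.944 and 0.361 CPM in the intimal libraries. Kcna5, a voltage-gated potassium channel (chromosome 6, 126532551 to 126535412), stood at 171 CPM in capillary cells and 13.2 CPM in other adventitial endothelium. Both genes were thus highest in the capillary cells, and Kcna5 had 0 UMIs in all 3 intimal libraries. A Tcf15 UMI was found in 74.1% of capillary cells, against 2.26% of adventitial B cells, which should lack it and whose median depth was 2419 UMIs. With every cell thinned to 2000 UMIs, which left out 52 of the capillary cells and 605 of the 1639 B cells, the Tcf15 shares were 59.7% and 1.45%.

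The 3 marker genes of the rule are given as a description only, since they chose the cells. Gpihbp1 (chromosome 15, 75596628 to 75599481) stood at 2774 CPM in capillary cells, 44.0 CPM in other adventitial endothelium and 3.31, 0.405 and 1.56 CPM in the intimal libraries. Cd36, the fatty acid translocase (chromosome 5, 17781690 to 17888801), stood at 3176 CPM in capillary cells, 317 CPM in other adventitial endothelium and 9.50, 5.40 and 6.73 CPM in the intima. Car4, a membrane carbonic anhydrase (chromosome 11, 84957786 to 84966044), stood at 589 CPM in capillary cells and 22.0 CPM in other adventitial endothelium, and the 3 intimal libraries held 1 UMI of it in all. Car4 had a UMI in 69.0% of capillary cells, against 99.3% for Cd36 and 100% for Gpihbp1, which the rule required.

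Few cells lay near the threshold. The summed UMIs of the 3 marker genes per capillary cell had a median of 20.5 and ran between 3 and 126. Only 8 members had a sum of 3 to 5. Outside it, 24 endothelial cells of the adventitia had a sum of 1 or 2, 24 had 0, and 8 reached 3 without a Gpihbp1 UMI. The same rule kept 5, 0 and 2 cells in aged descending intima 1 and 2 and young arch intima. Those 7 intimal cells had 0 or 1 Tcf15 UMIs and no Kcna5 UMI, and 5 of them had no Fabp4 UMI.

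**Figure D1:**
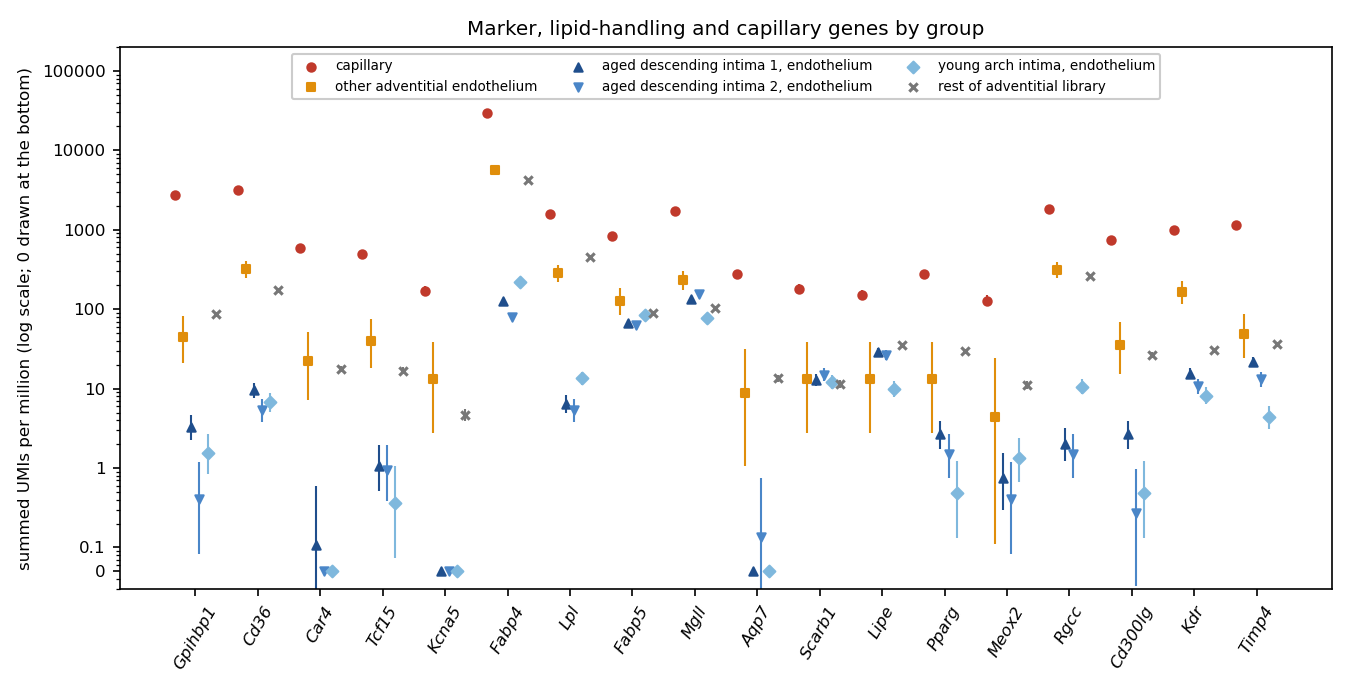
Summed CPM (log scale) of 18 marker, lipid-handling and capillary genes in the capillary cells, the other adventitial endothelium, the endothelium of the 3 intimal libraries and the rest of the adventitial library. Bars are 95% Poisson intervals. The genes are a choice from longer lists, and members that were not higher, such as Plvap, Slc27a1 and Rxra, are not drawn. Gpihbp1, Cd36 and Car4 also chose the cells. Among the genes drawn the capillary cells are the highest group, for example at 29712 CPM for Fabp4.

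Genes of the fatty acid pathway were higher in the capillary cells on both comparisons. Inside the adventitial library, which capillary and other endothelial cells shared, 10 of the 12 lipolysis and fatty acid uptake genes with enough UMIs were at least 2-fold higher in capillary cells. None was 2-fold lower. Their median log2 ratio was 2.59. Enough meant at least 20 UMIs over both groups, which 7068 genes had. Of these, 17.6% were at least 2-fold higher and 8.36% at least 2-fold lower in capillary cells, with a median log2 ratio of 0.18. No test was made inside the library, because there is 1 library and the rule split its cells.

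Fabp4, the fatty acid carrier of adipocytes and capillaries (chromosome 3, 10204088 to 10208576), was the most abundant of them. It stood at 29712 CPM in capillary cells, 5655 CPM in other adventitial endothelium and 127, 78.8 and 219.5 CPM in the intimal libraries. A Fabp4 UMI was present in 100% of capillary cells, and also in 100% of adventitial B cells, where it stood at 4011 CPM. The capillary level was 6.95-fold that of the rest of the library, where B cells, which should lack the gene, carried it too.

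Lpl, the lipoprotein lipase that GPIHBP1 binds (chromosome 8, 68880491 to 68907448), stood at 1598 CPM in capillary cells and 286 CPM in other adventitial endothelium, a ratio of 5.58 (4.36 to 7.26). Mgll, a monoacylglycerol lipase, stood at 1703 CPM in capillary cells, against 233 CPM in other adventitial endothelium. Aqp7, the glycerol channel (chromosome 4, 41033074 to 41048139), stood at 276 CPM in capillary cells and 8.81 CPM in other adventitial endothelium, from 332 and 2 UMIs, a ratio of 31.4 (8.62 to 260.1). Scarb1, a lipoprotein receptor, stood at 181 CPM in capillary cells and 13.2 CPM in other adventitial endothelium. Each of the 4 was at least 5.58-fold higher in capillary cells, and for Lpl and Aqp7 the other endothelium was close to the B cell level, 289 and 9.55 CPM.

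Against the intimal endothelium, 1 capillary sum of counts was compared with 3 intimal sums by the quasi-likelihood test of edgeR, and p-values were adjusted by Benjamini-Hochberg. The test assumes that the lone capillary sum would vary as the 3 intimal sums did, and rests on 2 residual degrees of freedom. Those 3 sums join aged descending and young arch libraries, so age and region enter their spread. The test covered 12846 genes. At an adjusted p under 0.05, capillary cells were higher in 1377 (10.7%) and lower in 1295 (10.1%), with a median log2 fold change of -0.10. Without aged descending intima 1 the counts were 862 and 745, and without aged descending intima 2 they were 858 and 661. Of the 1377 genes that rose, 263 were as high or higher in the rest of the adventitial library, and 610 were at least 2-fold over that rest.

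In this test 12 of 17 lipolysis and fatty acid uptake genes rose and none fell, with a median log2 fold change of 3.30. Of the 12, 8 were also at least 2-fold over the rest of the adventitial library. Lpl rose by 7.63 ± 0.50 on the log2 scale (edgeR adjusted p = 0.00121), with 6.41, 5.40 and 13.5 CPM in the intimal libraries. Each ± here and below is an approximate SE, worked back from the test. It is the size of the log2 fold change over the square root of the test's F statistic. Fabp4 rose by 7.77 ± 0.58 (edgeR adjusted p = 0.00160). Mgll rose by 3.87 ± 0.33, Fabp5, the second fatty acid carrier, by 3.59 ± 0.23, and Scarb1 by 3.84 ± 0.16. The lipid droplet coat gene Plin2 rose by 3.30 ± 0.14 and was 1.72-fold over the rest of the library. Dgat1, which makes triglyceride, rose by 1.22, with 37.5 CPM in capillary cells and 42.8 CPM in the rest of the library. Aqp7, with 1 UMI in the 3 intimal libraries, rose by 12.27 ± 0.39 (edgeR adjusted p = 0.000321). That ± is too narrow for a count of 1 UMI, so the size of the Aqp7 rise is uncertain. The hormone-sensitive lipase Lipe (2.87), the adipose triglyceride lipase Pnpla2 (2.03) and Angptl4, a secreted lipase inhibitor (3.94), rose as well, Pnpla2 being 1.98-fold over the rest of the library. Acsl1, which links fatty acids to coenzyme A, rose by 4.07 but was 1.58-fold over the rest of the library. The fatty acid transporters Slc27a1 (-1.22) and Slc27a4 (-0.64) and the lipoprotein receptor Vldlr (1.31) did not pass, and neither did Slc27a3.

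Transcription factors of this programme were mostly higher too. Pparg, a lipid-sensing nuclear receptor (chromosome 6, 115360951 to 115490399), stood at 281 CPM in capillary cells, 13.2 CPM in other adventitial endothelium and 2.67, 1.48 and 0.481 CPM in the intima, with a log2 rise of 7.54 ± 0.47 over the intima (edgeR adjusted p = 0.00111). Meox2, the homeobox partner of TCF15 (chromosome 12, 37108540 to 37179534), stood at 128 CPM in capillary cells and 4.40 CPM in other adventitial endothelium, from 154 UMIs and 1 UMI, and rose by 7.30 ± 0.36 over the intima. Tcf15 rose by 9.33 ± 0.31 (edgeR adjusted p = 0.000322). Meox1 rose over the intima (4.21) yet stood at 84.9 CPM in capillary cells and 74.9 CPM in other adventitial endothelium. The PPAR partner Rxra (-0.71) and the forkhead factor Foxo1 (-0.51) did not pass. In all, 4 of 6 tested factors rose and none fell, with a median of 5.76, and all 4 were at least 2-fold over the rest of the library.

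Promoters of the marker, lipid and transcription factor genes were searched for AGGTCA, the core motif of nuclear receptors, on both strands, with TGACCT as its other strand. RefSeq promoters (GRCm38.p6) were present for 18 of 29 genes, as 28 promoters, and the 250 bases before the start were read. The motif was found in 7 of the 28, in Aqp7, Cd36, Plin2, Pparg and Rxra, against 14% of all 32851 promoters of that length. The 2 Aqp7 promoters overlap and share 1 match, at -49 in one and at -223 in the other, which is counted in both. CAGCTG, an E-box that reads the same on its other strand, was in 5 of the 28 and in 13% of all. The direct repeat of this motif with 1 base of any kind between its copies, the PPAR response element, was in 0 of the 28 and in 0.0335% of all. Promoters of Cd36, a gene of the rule, of Aqp7, which had the highest ratio over other adventitial endothelium in the lipolysis list, and of Pparg are shown 5′ to 3′ with the motif in capitals. A match is a run of letters and not a site of binding.
Cd36 promoter, minus strand of chr5:17835897-17836146: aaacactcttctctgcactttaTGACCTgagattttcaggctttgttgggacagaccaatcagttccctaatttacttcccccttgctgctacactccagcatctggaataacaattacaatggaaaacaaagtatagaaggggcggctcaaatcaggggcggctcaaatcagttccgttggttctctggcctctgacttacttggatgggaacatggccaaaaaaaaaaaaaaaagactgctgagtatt
Aqp7 promoter, minus strand of chr4:41047963-41048212: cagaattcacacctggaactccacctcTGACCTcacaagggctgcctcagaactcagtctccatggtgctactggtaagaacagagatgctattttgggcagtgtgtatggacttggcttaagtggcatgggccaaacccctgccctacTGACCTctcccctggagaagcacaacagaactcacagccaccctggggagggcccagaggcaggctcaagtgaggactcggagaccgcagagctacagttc
Pparg promoter, plus strand of chr6:115362099-115362348: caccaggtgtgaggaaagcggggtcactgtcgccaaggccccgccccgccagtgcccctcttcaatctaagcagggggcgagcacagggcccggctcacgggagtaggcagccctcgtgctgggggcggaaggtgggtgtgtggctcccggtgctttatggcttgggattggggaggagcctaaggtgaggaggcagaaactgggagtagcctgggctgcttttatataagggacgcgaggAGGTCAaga

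The genes with the largest ratios inside the library, among those with a UMI in at least 20% of capillary cells, were not lipid genes for the most part. C1qtnf9, a secreted relative of adiponectin (chromosome 14, 60768134 to 60780869), stood at 467 CPM in capillary cells and 4.40 CPM in other adventitial endothelium, from 561 UMIs and 1 UMI, a ratio of 106 (19.0 to 4195). Btnl9, a butyrophilin-like surface protein of capillaries, stood at 514 CPM in capillary cells and 8.81 CPM in other adventitial endothelium, a ratio of 58.4 (16.1 to 483). Timp4, an inhibitor of metalloproteases, stood at 1162 CPM in capillary cells and 48.4 CPM in other adventitial endothelium, a ratio of 23.98 (13.4 to 48.2). Cd300lg, a receptor of capillary endothelium, stood at 749 CPM in capillary cells and 35.2 CPM in other adventitial endothelium, a ratio of 21.3 (10.7 to 49.4). The lower bounds of these 4 ratios were all above 10, but the genes were picked for large ratios, so the bounds are no separate support. The upper bounds were wide where the other endothelium held 1 or 2 UMIs. The other endothelium also held cells with lymphatic transcripts, described below with the venous genes. Without those 21 cells the Timp4 ratio was 12.5, and C1qtnf9, then at 0 UMIs in the other endothelium, was at least 18.4-fold higher, with 3 UMIs over the group as the floor.

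Further genes of that group were Rgs5, Ablim3, Aqp7, Vwa1, the endothelial guidance receptor Robo4, Meox2, Hrct1, Etl4, Mcf2l and the Notch target Hey1, with ratios between 22.5 and 65.9. Without the 21 cells Vwa1, Robo4, Meox2 and Hey1 were also at 0 UMIs in the other endothelium, and their bounds were at least 5.27-fold, 5.17-fold, 5.04-fold and 3.90-fold. Set against all other cells of the adventitial library, the leading genes were Kif26a (59.8-fold), Btnl9 (47.1), Ushbp1 (46.2), Nova2 (43.1), Arhgef15 (41.6), C1qtnf9 (40.3), Gm12002 (39.6), Robo4 (39.5), the VEGF receptor Flt1 (39.3) and Sema3g (39.1). Several of these are general endothelial genes, and only 56 of the 8207 cells in the rest passed the endothelial part of the rule. Before the Ptprc and fibroblast conditions, 435 of the 8497 adventitial cells reached the Pecam1 and Cdh5 threshold. Some cells with endothelial transcripts are thus in the rest as well. Rbp7, a retinol binding protein and known PPARG target of endothelium named here after its values were seen, stood at 2375 CPM in capillary cells and 115 CPM in other adventitial endothelium.

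**Figure D2:**
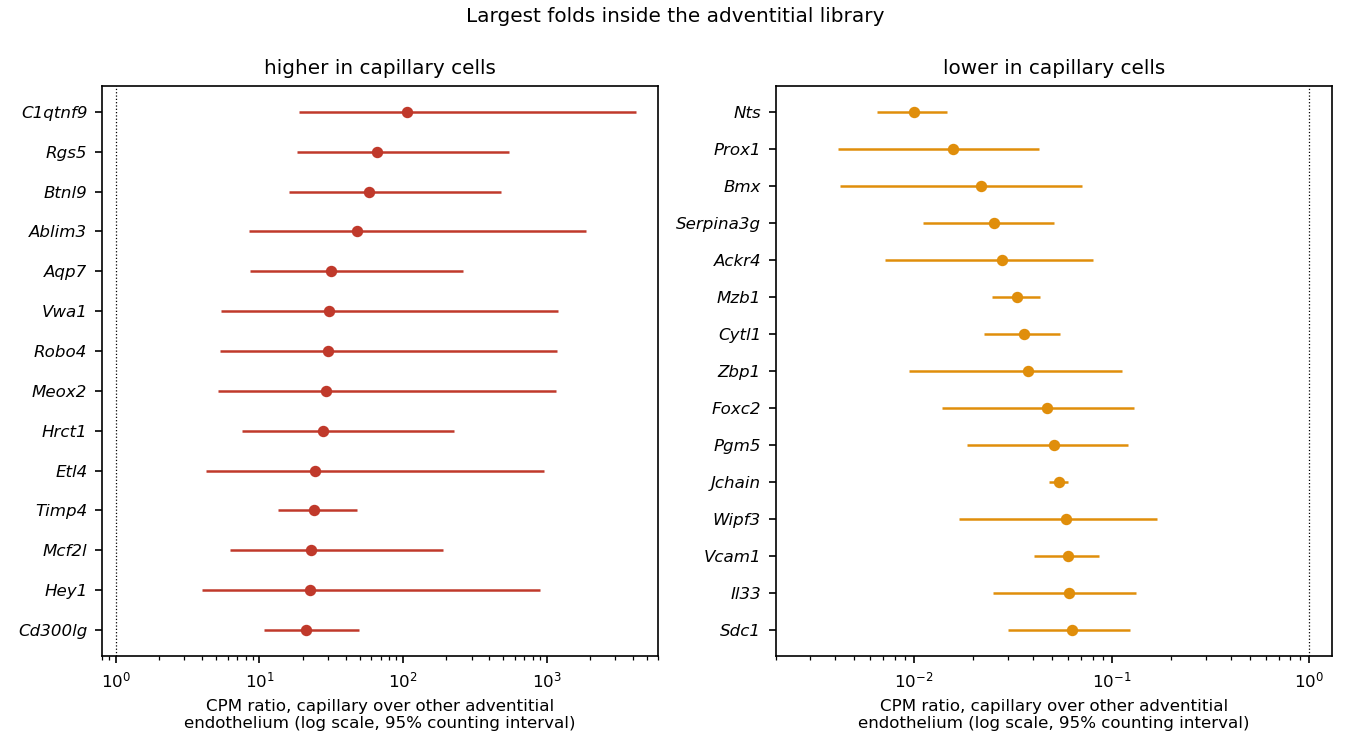
Ratio of CPM in capillary cells over other adventitial endothelium (log scale) for genes with the largest ratios up (left) and down (right), with 95% counting intervals. The left ratios run up to 106 for C1qtnf9. Genes were picked for these ratios, among those with a UMI in at least 20% of the cells of the higher group. Intervals that lie away from 1 follow from that choice and are a description only.

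Genes of capillary identity were higher for the most part. In the test against the intima 8 of 12 rose and 1 fell, with a median log2 fold change of 5.27. Rgcc, a cell cycle regulator of microvessels, stood at 1831 CPM in capillary cells, 313 CPM in other adventitial endothelium and 2.03, 1.48 and 10.6 CPM in the intima, a log2 rise of 8.65 ± 0.92 (edgeR adjusted p = 0.00420). Cd300lg rose by 9.33 ± 0.67 and Timp4 by 6.55 ± 0.65. Btnl9 rose by 8.59 ± 1.08, a call that DESeq2 did not make. Cxcl12, a chemokine, rose by 4.01 ± 0.55 over the intima, with 986 CPM in capillary cells and 61.7 CPM in other adventitial endothelium. Kcna5, at 0 UMIs in the intima, was at least 1427-fold higher in capillary cells, taking 3 UMIs over the group as the floor. Podxl (-0.39), the water channel Aqp1 (1.66) and Emcn (1.03) did not pass. Ramp3 rose by 2.07, but was at 30.8 CPM in capillary cells and 31.6 CPM in the rest of the library, and its call was lost at 2000 UMIs per cell.

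Plvap, which forms the diaphragms of fenestrae and caveolae (chromosome 8, 71497765 to 71511752), went the other way. It stood at 119 CPM in capillary cells, 802 CPM in other adventitial endothelium and 518, 533 and 273 CPM in the intimal libraries. The log2 fall against the intima was -1.80 ± 0.43 (edgeR adjusted p = 0.0396), and the call was lost without aged descending intima 1 or without aged descending intima 2. A Plvap UMI was found in 32 of the 290 capillary cells and 28 of the 56 other adventitial endothelial cells.

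The coat genes of caveolae did not pass in either direction against the intima (0 of 6 called, median log2 fold change 0.23). Cav1, the main caveolin, stood at 1226 CPM in capillary cells, 427 CPM in other adventitial endothelium and 857, 1092 and 999 CPM in the intima. Inside the library 4 of the 6 were at least 2-fold higher in capillary cells.

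VEGF and angiopoietin genes were mostly higher. In the test against the intima 7 of 10 rose and 2 fell, with a median of 3.92. Kdr, counted with the identity genes and the main VEGF receptor (chromosome 5, 75932827 to 75978458), stood at 1002 CPM in capillary cells, 163 CPM in other adventitial endothelium and 15.5, 10.7 and 8.18 CPM in the intima, a log2 rise of 6.53 ± 0.31 (edgeR adjusted p = 0.000601). Flt1, the decoy VEGF receptor (chromosome 5, 147561604 to 147726011), rose by 4.08 ± 0.45, with 962 CPM in capillary cells and 123 CPM in other adventitial endothelium. The co-receptors Nrp1 (1.19) and Nrp2 (5.61), the apelin receptor Aplnr (5.69) and the ligands Pgf (4.24) and Angpt2 (3.77) rose, and the Nrp1 call was lost without aged descending intima 1. Apln, the apelin peptide of sprouting vessels, had 37 UMIs in capillary cells and 0 in the intima and was at least 258-fold higher. The angiopoietin receptors Tek (-1.76 ± 0.25) and Tie1 (-1.06 ± 0.23) fell, and the Tie1 call was lost without aged descending intima 1 or 2 and at 2000 UMIs per cell.

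Basement membrane genes were higher on both comparisons. Against the intima 8 of 10 rose and none fell (median 2.28), and inside the library 7 of 10 were at least 2-fold higher and none lower. Col4a1 stood at 661 CPM in capillary cells, 96.9 CPM in other adventitial endothelium and 113, 127 and 102 CPM in the intima, and rose by 2.61 ± 0.16 (edgeR adjusted p = 0.00109). Its partner Col4a2 rose by 3.37 ± 0.15. Of the 8 that rose, 2 were as high or higher in the rest of the library, which holds fibroblasts: Col15a1 and Lamb1. The Col15a1 call was lost at 2000 UMIs per cell. The Lamc1 call was lost without aged descending intima 2, at 2000 UMIs per cell and with members carrying pericyte transcripts left out. The perlecan gene Hspg2 (0.61) and Sparc (1.16) did not pass.

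Transport genes moved less evenly, with 5 of 11 higher and none lower against the intima (median 1.36), where 10.7% of all tested genes were higher. The nucleoside transporter Slc28a2 (7.08), the insulin-responsive glucose transporter Slc2a4 (6.08), the monocarboxylate transporter Slc16a1 (5.69), the transferrin receptor Tfrc (3.88) and the insulin receptor substrate Irs2 (3.70) rose. Irs2 was higher in the rest of the library, at 47.4 CPM, than in capillary cells, at 14.98 CPM. The glucose transporter Slc2a1 (0.03) and the receptors Insr (-0.08) and Igf1r (-0.04) did not pass.

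**Figure D3:**
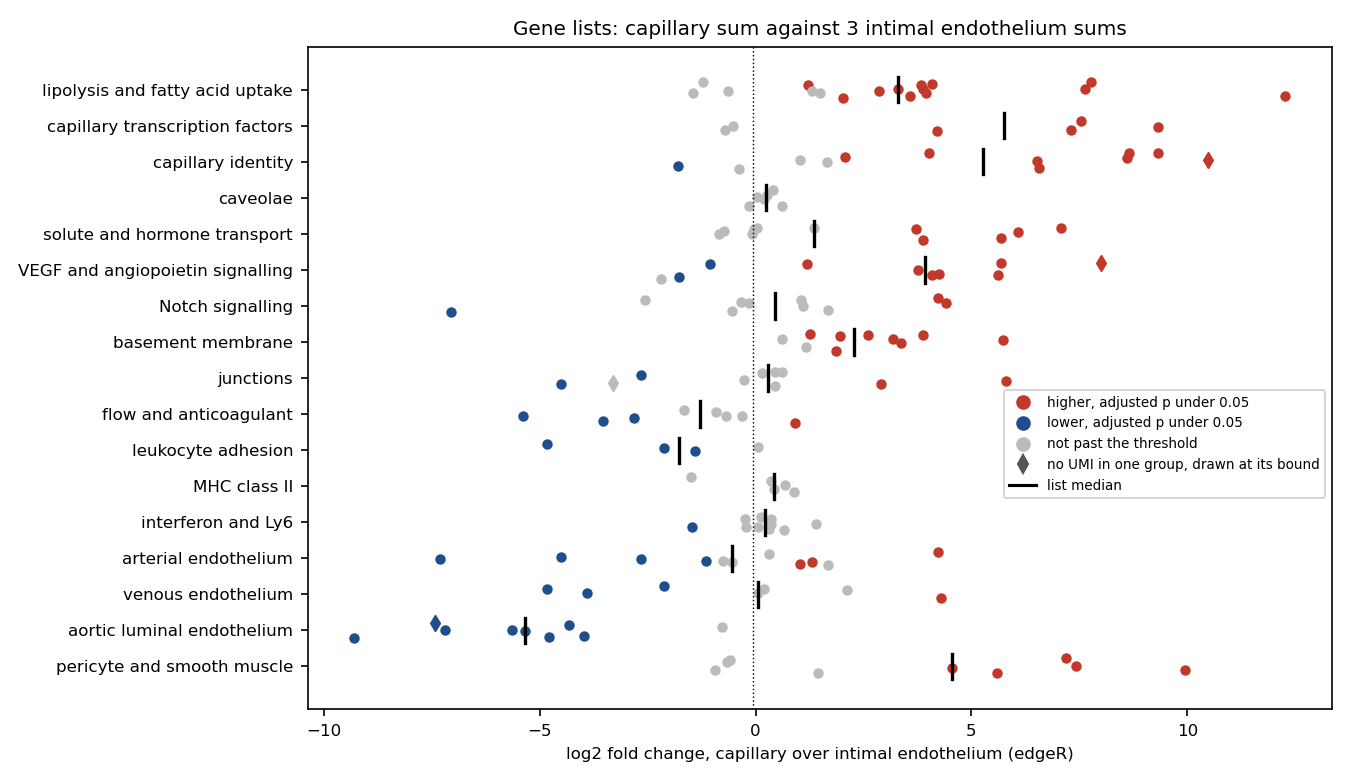
log2 fold changes of the tested genes of 17 lists, capillary cells over the endothelium of the 3 intimal libraries, with red and blue for genes past an edgeR adjusted p of 0.05, diamonds for genes with no UMI on one side drawn at their bound, black bars for list medians and a dotted line for the median of all genes. The lipid, capillary and basement membrane lists lie to the right (medians 3.30, 5.27 and 2.28) and the aortic luminal list to the left (median -5.35).

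Genes of the aortic lining were mostly lower in capillary cells. Against the intima 8 of 9 aortic luminal genes fell and none rose, with a median of -5.35. Cytl1, a secreted cytokine-like protein, stood at 21.6 CPM in capillary cells, 603 CPM in other adventitial endothelium and 12918, 17992 and 12196 CPM in the intima, a log2 fall of -9.29 ± 0.46 (edgeR adjusted p = 0.000720). Clu, the chaperone clusterin, (-5.35) and Eln, elastin (-4.79), fell too. Klk10, a kallikrein of aortic endothelium, had 0 UMIs in capillary cells against 10734 in the intimal libraries and was at least 171-fold lower. Stmn2 was the exception, at 163 CPM in capillary cells and 315, 340.5 and 230 CPM in the intima, and did not pass (-0.77).

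The other largest falls were in the uncharacterised 1500015O10Rik, the homeobox genes Isl1 and Nkx2-3, the Wnt inhibitor Frzb, Pdzk1ip1, the aldehyde dehydrogenase Aldh3a1, Plekha6 and the protease inhibitors Serpina1d and Serpina1e, each with 0 UMIs in capillary cells and bounds of at least 23.7-fold to 138-fold. The calls of Serpina1d, Serpina1e and Aldh3a1 were lost without aged descending intima 2. Serpina1d and Serpina1e are near-identical copies, so how reads were divided between them is uncertain.

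Genes of flow responses and anticoagulation were lower or did not pass for the most part. Inside the library none of 8 was at least 2-fold higher in capillary cells and 5 were at least 2-fold lower. Among all tested genes 10.7% rose and 10.1% fell against the intima. Of 8, 1 rose and 3 fell against the intima (median -1.28). The endothelial nitric oxide synthase Nos3 stood at 44.95 CPM in capillary cells and 378, 366 and 260 CPM in the intima (-2.81 ± 0.30). The prostacyclin synthase Ptgis (-5.38) and the protein C receptor Procr (-3.53) fell. The flow-induced factor Klf2 (-0.30), thrombomodulin Thbd (-0.67) and Tfpi (-0.90) did not pass. Klf4 rose by 0.91, a call that was lost without aged descending intima 1.

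Adhesion molecules for leukocytes were lower or did not pass. Vcam1 stood at 32.5 CPM in capillary cells, 542 CPM in other adventitial endothelium and 934, 943 and 1024 CPM in the intima, a log2 fall of -4.82 ± 0.27 (edgeR adjusted p = 0.000865). Selp, P-selectin (-2.13), and Icam2 (-1.40) fell, and the Icam2 call was lost without aged descending intima 1. Icam1 did not pass (0.05).

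Arterial genes moved in both directions. Against the intima 3 of 11 arterial genes rose and 4 fell. For these counts, and for the Notch and junction counts below, the shares over all tested genes were 10.7% higher and 10.1% lower. Hey1 stood at 99.1 CPM in capillary cells, 4.40 CPM in other adventitial endothelium and 5.87, 7.96 and 3.01 CPM in the intima, a log2 rise of 4.23 ± 0.41 (edgeR adjusted p = 0.00317), while its relative Hey2, counted with the Notch genes, stood at 0.832 CPM in capillary cells and 121, 155 and 85.2 CPM in the intima (-7.06 ± 0.76). The arterial connexins Gja5 (-4.51) and Gja4 (-2.64), the kinase Bmx (-7.32) and the fibulin Fbln5 (-1.14) fell, and the guidance receptor Unc5b rose, at 46.6 CPM in capillary cells and 21.2, 18.2 and 20.1 CPM in the intima. Fbln5 lost its call without aged descending intima 1 and Unc5b at 2000 UMIs per cell. Of 10 Notch genes 2 rose, Hey1 and the ligand Jag2 (4.41), and 1 fell, Hey2. Of 10 junction genes 2 rose, the connexin Gja1 (5.81) and Jam3 (2.91), and 2 fell, Gja5 and Gja4. Gja1 stood at 102 CPM in capillary cells and 132 CPM in other adventitial endothelium, and the tight junction gene Cldn5 did not pass (0.14). The artery factor Sox17 rose by 1.02 and lost its call without aged descending intima 1 or 2.

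Venous genes were lower in capillary cells than in the other adventitial endothelium. Inside the library none of 8 venous genes was at least 2-fold higher in capillary cells and 6 were at least 2-fold lower. Ackr1, a chemokine scavenger of venules, stood at 0.832 CPM in capillary cells and 128 CPM in other adventitial endothelium. Lrg1 stood at 197 CPM in capillary cells and 2718 CPM in other adventitial endothelium, and Vwf, the clotting factor carrier, at 59.1 CPM in capillary cells and 555 CPM in other adventitial endothelium. Of the 56 other cells, 21 carried at least 2 UMIs of the lymphatic genes Prox1, Mmrn1, Ccl21a, Flt4 and Lyve1, and 5 carried at least 10 UMIs of the plasma cell genes Jchain and Mzb1. The comparison group was therefore mixed. Against the intima 1 of 8 venous genes rose, the vein factor Nr2f2 (4.29), and 3 fell, beside 10.7% and 10.1% of all tested genes.

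Several of the genes with the lowest ratios are known from lymphatic or plasma cells. Nts, neurotensin, known from lymphatic endothelium, stood at 22.5 CPM in capillary cells and 2251 CPM in other adventitial endothelium, which was 100-fold higher. Prox1, the master factor of lymphatics, stood at 3.33 CPM in capillary cells and 211 CPM in other adventitial endothelium. The others were Bmx, Serpina3g, the chemokine scavenger Ackr4, Mzb1, Cytl1, Zbp1, the valve factor Foxc2, Pgm5, Jchain, Wipf3, Vcam1, the alarmin Il33 and the syndecan Sdc1, between 15.9-fold and 45.9-fold higher in the other endothelium. Without the 21 cells with lymphatic transcripts, Nts was 36.9-fold, Cytl1 13.7-fold and Vcam1 7.31-fold higher in the other endothelium, and Prox1 and Ackr4, each with 3 UMIs left there, 7.63-fold. Vcam1 then stood at 32.5 CPM in capillary cells and 237 CPM in the 35 remaining cells. Mzb1 was 55.8-fold higher in the 35 cells. Jchain and Mzb1 are plasma cell genes. Without the 5 cells rich in them, the Jchain ratio of capillary cells over the other endothelium was 1.16 and that of Mzb1 0.595.

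Antigen presentation genes of MHC class II were lower in capillary cells inside the library. The 4 with enough UMIs were each at least 2-fold lower there, with Cd74 at 1099 CPM in capillary cells, 4268 CPM in other adventitial endothelium and 7894 CPM in the rest of the library. The 5 class II genes summed to 2012 CPM in capillary cells, 7501 CPM in other adventitial endothelium and 1842 CPM in adventitial fibroblasts. Adventitial B cells held Cd74 at 16730 CPM. T and B cell markers summed to 57.4 CPM in capillary cells and 264 CPM in other adventitial endothelium. The part of B cell RNA in the class II difference was not tested. Of 4 class I genes 1 was at least 2-fold lower in capillary cells. Against the intima 0 of 5 class II genes and 0 of 4 class I genes passed. Among interferon and Ly6 genes Ifit3 alone fell (-1.47), a call lost without aged descending intima 2 and at 2000 UMIs per cell, and Ly6c1, a surface protein of microvessels, stood at 2463 CPM in capillary cells, 317 CPM in other adventitial endothelium and 1217, 1281 and 477 CPM in the intima without passing (1.40). Of 10 immediate early genes, which respond to handling, Atf3 (3.46), Junb (1.65) and Dusp1 (1.19) rose against the intima, where 10.7% of all tested genes rose. The calls of Junb and Dusp1 were lost without aged descending intima 1. Atf3 was not higher inside the library, at 431 CPM in capillary cells and 797 CPM in other adventitial endothelium. Of 6 cell cycle genes, Pcna alone passed (0.75), and it reversed to -0.20 at 2000 UMIs per cell. The Pcna call was also lost without aged descending intima 1, without aged descending intima 2, with no filter on low counts, with fibroblast transcripts under 5 and with DESeq2. Mki67, a marker of cycling cells, had 7 UMIs in the 290 cells.

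Markers of other organs' capillaries were not a uniform feature, and the counts below stand beside a share of 10.7% higher over all tested genes. Of 8 tested lung capillary genes 3 rose and none fell against the intima: the T-box factors Tbx3 (8.74) and Tbx2 (5.01) and the endothelin receptor Ednrb (4.99). Ednrb stood at 190 CPM in capillary cells and 414 CPM in other adventitial endothelium. Of 4 tested brain capillary genes the drug pump Abcb1a rose (4.07). Of 4 tested liver sinusoid genes the Fc receptor Fcgr2b rose (1.66), with 24.97 CPM in capillary cells and 107 CPM in the rest of the library, and its call was lost without aged descending intima 1, without aged descending intima 2, with doublets removed and at 2000 UMIs per cell.

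RNA of other cells was present in the capillary cells at levels that depended on the cell type. The 8 adipocyte markers summed to 1813 CPM in capillary cells, 982 CPM in other adventitial endothelium, 1204 CPM in the rest of the library, 944 CPM in adventitial fibroblasts and 1268 CPM in B cells, with Lep at 0. In the intimal libraries they summed to 0, 0 and 0.361 CPM. A Ucp1 UMI, the uncoupling protein of brown fat, was found in 95.2% of capillary cells at 1035 CPM and in 91.5% of B cells at 910 CPM. All 7 tested adipocyte markers passed as higher than the intima, with bounds of at least 8655-fold for Ucp1, 1671-fold for Cfd and 947-fold for Cidec. The part of such RNA in the lipid results was not tested.

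The 10 largest log2 rises against the intima were accordingly a mixture. Ucp1, Cfd, Cidec and the gluconeogenic gene Pck1 were within 3.08-fold of their level in the rest of the library. Kcna5, Aqp7, Higd1b, Tmem182 and Gm12002 were at least 13.4-fold over that rest. Thrsp, a regulator of fat synthesis, stood at 506 CPM in capillary cells, 119 CPM in other adventitial endothelium and 150.4 CPM in the rest of the library.

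Other markers were mixed. The 7 fibroblast markers summed to 432 CPM in capillary cells, 559 CPM in other adventitial endothelium and 4624 CPM in the rest of the library, but 3 of them were capped by the rule. Macrophage markers summed to 1330 CPM in capillary cells, 1533 CPM in other adventitial endothelium and 396, 260.4 and 521 CPM in the intima. The 4 haemoglobin genes, whose copies share sequence, summed to 18462 CPM in capillary cells, 11879 CPM in other adventitial endothelium and 9021, 1804 and 26632 CPM in the intima, and 1 capillary cell held 3938 of these UMIs. Ccl21a, a lymphatic chemokine, had 449 UMIs in capillary cells, of which 445 lay in 1 cell. Of the 290 capillary cells, 3 had 5 or more UMIs of the whole lymphatic list.

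**Figure D4:**
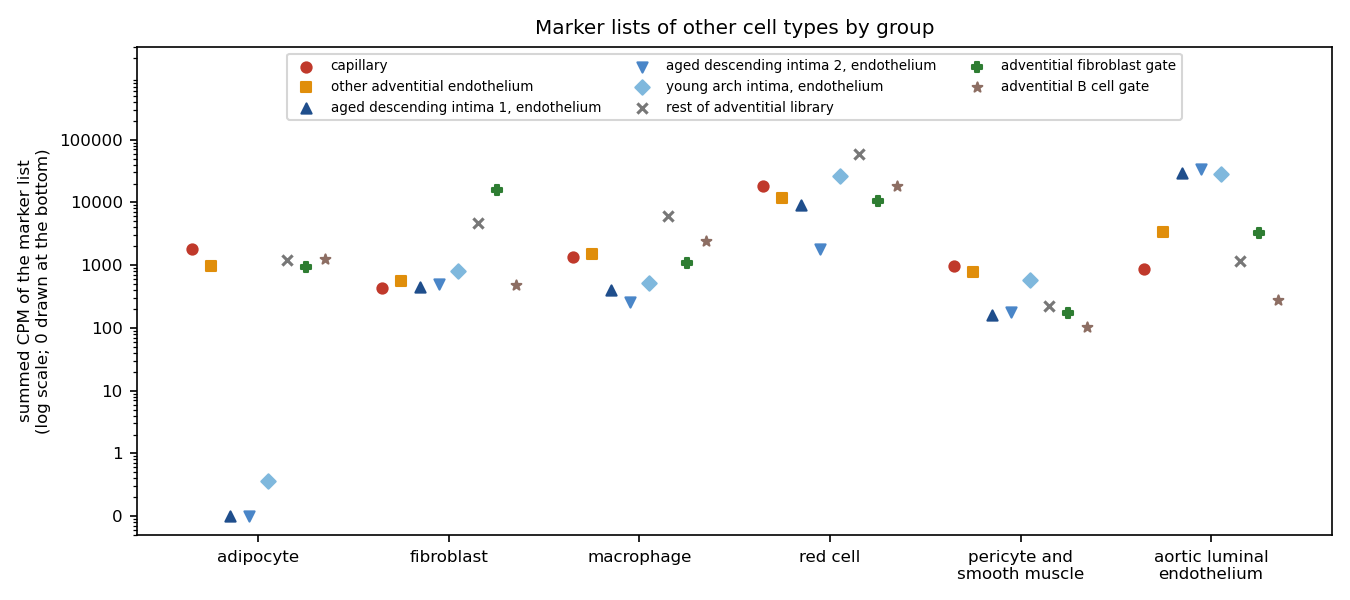
Summed CPM (log scale) of 6 marker lists in the capillary cells, the other adventitial endothelium, the 3 intimal endothelium groups, the rest of the adventitial library and adventitial fibroblasts and B cells. Adipocyte transcripts lie between 944 and 1813 CPM in each adventitial group and at 0, 0 and 0.361 CPM in the intima.

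The capillary cells were not all alike. Mural transcripts, those of pericytes and smooth muscle, were present in a minority. With Kcnj8, Abcc9, Notch3, Pdgfrb and Cspg4 summed, 39 of the 290 cells (13.4%) had 2 UMIs or more, 23 had 1 and 228 had 0. Rgs5, a G protein regulator known from pericytes, stood at 2015 CPM in the 39 cells and 174 CPM in the 228 without a mural UMI. The 39 cells also held more Higd1b (447 CPM, against 28.0 CPM in the 228), Steap4 (226 and 10.5 CPM), Postn (509 and 15.2 CPM) and Meg3 (780 and 12.8 CPM). They had a median of 4943 UMIs per cell, against 3239.5 in the 228. This split used Kcnj8 and the other 4 genes, which are therefore not reported between the subsets.

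Capillary genes did not separate the same subsets. Gpihbp1 stood at 2485 CPM in the 39 cells and 2835 CPM in the 228, Cd36 at 3552 and 3054 CPM, Tcf15 at 492 and 518 CPM, Fabp4 at 26491 and 30372 CPM and Lpl at 1555 and 1600 CPM. Gpihbp1 and Cd36 belong to the rule, so a barcode without them could not be among the 39, and their levels are a description only. Tcf15, Fabp4 and Lpl, which the rule did not use, stood in the 39 cells at nearly the level of the 228. Doublet scoring removed 19 of the 290 cells. With the 39 cells left out, a choice made after seeing the data, 1264 genes were higher and 1222 lower than in the intima, of which 1209 and 1112 were shared with the test on all members. Of 9 pericyte and smooth muscle markers 5 rose against the intima and none fell. The 9 summed to 3654 CPM in the 39 cells and 258 CPM in the 228, a difference that the split in part made, against 160, 177 and 579 CPM in the intimal libraries. The call of Abcc9 was lost with the 39 cells left out (log2 2.63, edgeR adjusted p = 0.137). Rgs5 rose over the intima by 9.94 ± 0.57 (edgeR adjusted p = 0.000865) with all members, and Kcnj8, an ATP-sensitive potassium channel, by 7.42. Whether single barcodes held a capillary cell and a pericyte was not tested.

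**Figure D5:**
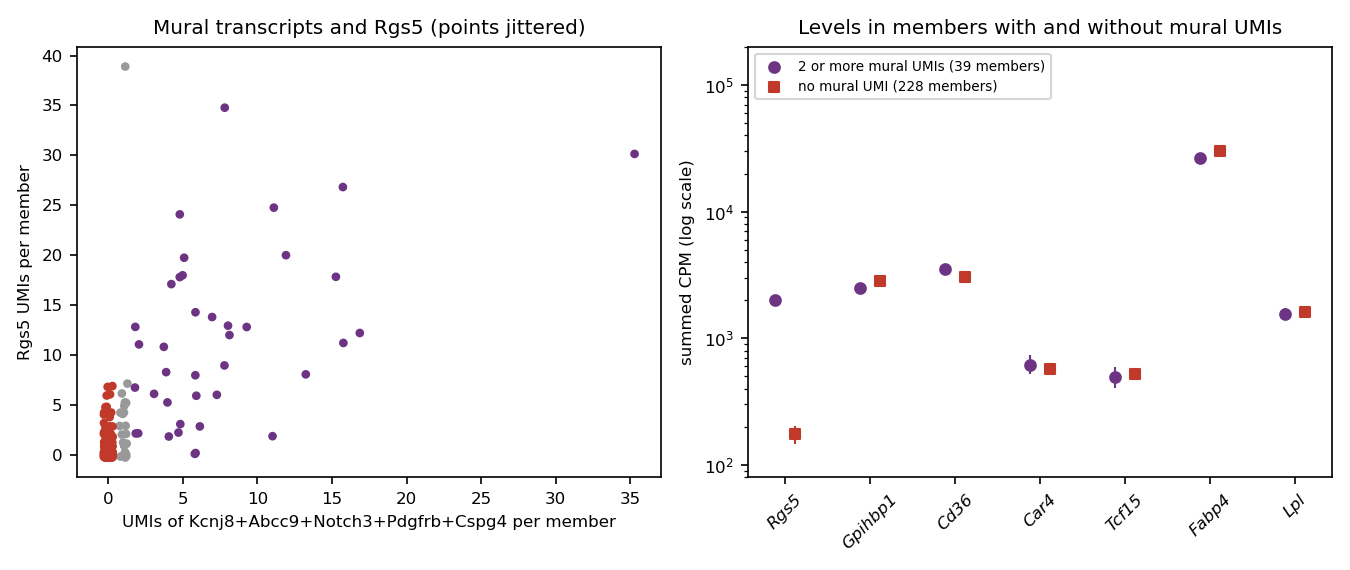
Left, Rgs5 UMIs against summed mural UMIs in each of the 290 members, with members of 2 or more mural UMIs in purple, of 1 in grey and of 0 in red. Right, summed CPM (log scale) with 95% Poisson intervals in the 39 members with mural transcripts and the 228 without: Rgs5 differs (2015 and 174 CPM) and the capillary genes lie close together. Of these, Gpihbp1, Cd36 and Car4 are genes of the rule that every member had to pass.

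Members differed in how many UMIs of the arterial list they held. The list summed to 1063 CPM over the capillary cells, so a thinned cell held few of its UMIs. Counting alone spreads such low numbers, and whether the split went beyond that was not tested. In the 238 cells that had 2000 UMIs to thin to, 120 held 2 or more UMIs of the arterial list and 51 held 0. Stmn2 stood at 263 CPM in the 120 cells and 43.5 CPM in the 51, Edn1, the vasoconstrictor endothelin, at 148 and 8.69 CPM, and Clu at 137 and 17.4 CPM. Some genes of other lists were higher in the 120 cells too. Plvap stood at 188 CPM in the 120 cells and 34.8 CPM in the 51, a ratio of 5.40 (2.65 to 12.8), and the venous gene Vwf at 94.0 and 0 CPM. Rbp7 stood at 2932 CPM in the 120 cells and 1695 CPM in the 51, a ratio of 1.73 (1.55 to 1.94). Lpl stood at 1589 CPM in the 120 cells and 1526 CPM in the 51, and Fabp4 at 28706 and 32031 CPM. Some leukocyte genes were lower in the 120 cells, with Cd74 at 682 CPM against 1982 CPM in the 51 and Lyz2 at 496 against 1304 CPM. The 51 cells also took in 445 UMIs of Ccl21a.

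Members with more UMIs of the venous list held lower levels of capillary transcripts. The list includes the adhesion genes Icam1, Vcam1, Selp and Sele, so its UMIs do not by themselves mark venous cells. The 42 cells with 2 or more venous UMIs, 19 of which also had 2 or more arterial ones, were set against 128 cells with 0. Plvap, which was also higher in the cells with arterial UMIs, stood at 448 CPM in the 42 cells and 26.8 CPM in the 128, and Igfbp5 at 457 and 43.5 CPM. Fgl2 stood at 280 CPM in the 42 cells and 1.67 CPM in the 128, and Lcn2 at 308 and 8.37 CPM. The 1 cell with 445 Ccl21a UMIs was among the 42. Gpihbp1 stood at 1993 CPM in the 42 cells and 3033 CPM in the 128, Cd300lg at 485 and 832 CPM, Fabp4 at 21781 and 32632 CPM and Rbp7 at 1554 and 2683 CPM. These subsets were defined from the data and belong to 1 library, so they carry no test.

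Across the 290 members, and as a description of cells of 1 library that differ in depth, Gpihbp1 correlated with Fabp4 (Pearson r = 0.64), Lpl (0.49), Car4 (0.49) and Rgcc (0.47) on a log scale of depth-normalised UMIs, and less with Cd36 (0.26) and Aqp1 (0.15). Its correlation was -0.29 with Stmn2 and -0.30 with Fbln5, and that of Stmn2 with Fbln5 was 0.60. Gpihbp1, Cd36 and Car4 chose the cells, so the rule itself limited the values behind the correlations of these genes. Of 4866 genes found in at least 10% of members, the haemoglobin genes, Cd74, Retnla and Fabp4 varied most beyond counting error, with variance over the Poisson value at 37.2 for Fabp4 and a median of 1.06 for all genes ranked. Fabp4 per cell had a median of 96.5 UMIs and ran between 6 and 595.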

How the data were processed

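Single cells of 4 mouse aorta libraries were measured by 10x 3' droplet sequencing (v2 chemistry), per the labels' protocols. The authors deposited raw UMI counts per gene and barcode for called cells, made with Cell Ranger 2.1.2 on mm10, per the submitters' processing notes. The annotation release is not given in the sources used here. Of 27998 gene IDs, 27645 had a symbol. Gene coordinates are GENCODE M21 (GRCm38).

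Cells under 200 genes or over 10% mitochondrial UMIs were dropped. No doublets were removed in the main values: Scrublet's own threshold marked only 2 adventitial cells, so an alternative removed the 593 highest scores, a number set by a rate that grows with the cells loaded. Counts were summed per group. The capillary sum was tested against the 3 intimal sums with edgeR 4.0.16 (TMM, filterByExpr, glmQLFit and glmQLFTest, Benjamini-Hochberg adjustment over the genes tested, threshold 0.05), in R 4.3.3. Genes of the rule were not counted. Groups of adventitial cells were compared by ratios of CPM with exact conditional intervals, with no test. Bounds for a group without UMIs used 3 counts as its floor. Python 3.11.15, scipy 1.17.1 and scanpy 1.11.5 (Scrublet) were used.

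The members, gene lists and naming rule were chosen with earlier results of these data known. Named were members of the lists, the 15 largest ratios up and down inside the library, the 10 largest over the rest of the library, and the 10 largest edgeR changes each way; some genes these take in are not reported here. The test was tried on simulated data first. The 3 intimal libraries differ in age and aortic region, and may also differ by technical spread. All of these enter the spread that the p-values measure.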

Additional observations from a re-analysis of the deposited data

How the results depend on the processing

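The capillary share of adventitial cells was 2.84% with at most 5% mitochondrial UMIs. Inside the library, 773 genes were higher and 349 lower with cells thinned to 2000 UMIs, and 627 and 265 at a 3-fold threshold. Against the intima, leaving out 1 intimal library gave between 858 and 1890 genes higher and between 661 and 1611 lower, and thinning to 2000 UMIs gave 793 lower. DESeq2 1.42.0 gave 1242 higher and 920 lower. No gene called in the main test was called in the opposite direction under the 12 alternatives. Under thinning Pcna stood at -0.20 and Pdpn at -0.29, both with reversed sign. The Jchain ratio turned to 1.16 without plasma-marker cells in the other endothelium, an alternative added after seeing the data. Thinning and leaving out samples use fewer counts; otherwise the cause was not tested. No paired analysis was possible because there is a single adventitial library. Depth limits the ratios where the other adventitial endothelium, of 56 cells, held few UMIs.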
